A study of Mus musculus and Acomys cahirinus with 25 samples.

Results

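The nuclear genes of oxidative phosphorylation were followed through 25 RNA-seq libraries of wounded mouse skin. Members were the symbols of the count tables that start with Ndufa, Ndufb, Ndufc, Ndufs or Ndufv and a number, with Uqcr, with Cox4, Cox5, Cox6, Cox7 or Cox8 or with Atp5, together with Sdha, Sdhb, Sdhc and Sdhd. These were 84 of the 24500 symbols listed: 37 of complex I, 4 of complex II, 8 of complex III, 18 of complex IV and 17 of complex V. The rule used names and no measured value. It took in Cox7a2l, a factor that joins respiratory complexes into supercomplexes, and also Atp5s and Atp5sl, now named Dmac2l and Dmac2, which are not structural subunits of the ATP synthase. Complexes were assigned by the start of the symbol. Ndufa4 and its paralog Ndufa4l2 therefore count with complex I by name, and not by where their proteins sit.

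Oxidative phosphorylation takes place at the inner mitochondrial membrane. Complexes I (NADH dehydrogenase, Nduf genes) and II (succinate dehydrogenase, Sdh genes) pass electrons to ubiquinone, complex III (the cytochrome bc1 complex, Uqcr genes) hands them to cytochrome c and complex IV (cytochrome c oxidase, Cox genes) delivers them to oxygen. Complexes I, III and IV pump protons, and complex V (the ATP synthase, Atp5 genes) uses the gradient to make ATP. Complexes I, III, IV and V mix subunits from the nucleus with subunits from the mitochondrial genome, whereas complex II is wholly nuclear and also works in the TCA cycle. Several complex IV subunits come as paralogs used in different tissues, such as Cox7a1 in heart and skeletal muscle. Keratinocytes of the epidermis are known for a high rate of glycolysis beside respiration.

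Wild-type laboratory mice (C57Bl/6J, wounded at 4 weeks of age per the study) were sampled on post-wound day 14 (PWD14), when the wound center had been punched out and the rest of the wound bed taken as margin. The wild-type libraries were 2 of center epidermis, 2 of margin epidermis, 5 of center dermis and 2 of margin dermis. A further 2 libraries held center dermis of K14-Cre-Twist1-loxP mice, in which Cre is driven by a promoter of basal keratinocytes; the labels give their controls as WT, and the study names Twist1+/+ mice as wild type beside them. Wild-type spiny mice (Acomys cahirinus, wounded at 2 months) gave whole wounds, with epidermis at PWD0 (1 library), PWD14 (2), PWD21 (2) and PWD28 (1) and dermis at PWD0 (2), PWD14 (1), PWD21 (2) and PWD28 (1). Days are those of the labels, and a library list of the study gives the wounded spiny mouse libraries days that differ from these by 1 or 2. Epidermis and dermis were parted by hand, in the spiny mouse after trypsin-EDTA. Laboratory mouse epidermis was sequenced as strand-specific paired-end reads, its dermis as strand-specific single-end reads and the spiny mouse as single-end reads without strand, so layer and read type cannot be told apart in the laboratory mouse. Spiny mouse reads were aligned to the laboratory mouse genome, so levels were not compared between species.

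The 13 laboratory mouse libraries held 19413261 to 86532134 counts and the 12 spiny mouse libraries 5669760 to 34751956. Counting was the only source of error that depth covers, and 3 counts stood for 0.0347 to 0.155 CPM in the laboratory mouse and for 0.0863 to 0.529 CPM in the spiny mouse. Summed over 14 keratinocyte markers, the level was 213313 to 285818 CPM in laboratory mouse epidermis and 35.9 to 3491 CPM in its wild-type dermis. The second K14-Cre-Twist1 dermis library stood apart at 29848 CPM of these markers, against 954 CPM in the first. In the spiny mouse the sum was 31098 to 131778 CPM in epidermis and 646 to 11924 CPM in dermis. The margin epidermis libraries differed more than 2-fold in 19 of 76 members, against 0 of 77 between the center epidermis libraries. No pair of libraries was identical.

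Nearly all members were detected. Of the 84, 70 were at 1 CPM or more in every laboratory mouse library and 71 in every spiny mouse library, where CPM are counts relative to a library's total, scaled with TMM factors over all libraries of the species. The median member level was 54.7 CPM in the laboratory mouse and 84.1 CPM in the spiny mouse. Members with a mean under 1 CPM were mostly the muscle and testis paralogs of complex IV: Cox6a2, Cox6b2, Cox7a1, Cox7b2, Cox8b and Cox8c in the laboratory mouse, and Cox6a2, Cox7b2, Cox7c, Cox8b, Cox8c, Ndufb4 and Ndufs5 in the spiny mouse. Cox8c had at most 3 counts in every library of both species. Cox7c, Ndufb4 and Ndufs5 are general subunits, and all spiny mouse values are those of reads that matched the laboratory mouse genome. Near-identical pseudogene copies of the transcript (95% identity over at least 50% of its length) were annotated for 10 members. Copies of other types were not counted. The 10 were Atp5l (8 copies), Atp5h and Uqcrb (3 each), Atp5g2 (2) and Atp5k, Atp5o, Ndufb11, Ndufs3, Ndufs5 and Ndufs6 (1 each). The values of these members are uncertain where reads could be shared. In the spiny mouse, reads of a gene and of an antisense partner cannot be told apart.

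Per kilobase of transcript, the highest means in laboratory mouse epidermis were those of Uqcrb, a small complex III subunit, at 449 CPM per kb (256 to 823 over the libraries), of Uqcrh, the hinge protein of complex III, at 405 CPM per kb (330 to 462) and of Ndufa4l2, a paralog of Ndufa4, at 390 CPM per kb (305 to 468). In laboratory mouse dermis Uqcrh at 243 CPM per kb (158 to 408) and Atp5b, the catalytic beta subunit of the ATP synthase, at 240.0 CPM per kb (214 to 273) were highest. In the spiny mouse Cox5a, a matrix-facing subunit of complex IV, led the epidermis at 1064 CPM per kb (368 to 2014) and Atp5g3, which codes for the membrane c subunit of the ATP synthase, led the dermis at 763 CPM per kb (388 to 1298), before Atp5e at 617 CPM per kb. The ranges of these leading members, taken over all libraries of a layer, overlapped in each layer. They do not show the order within single libraries, which was not compared.

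**Figure D1:**
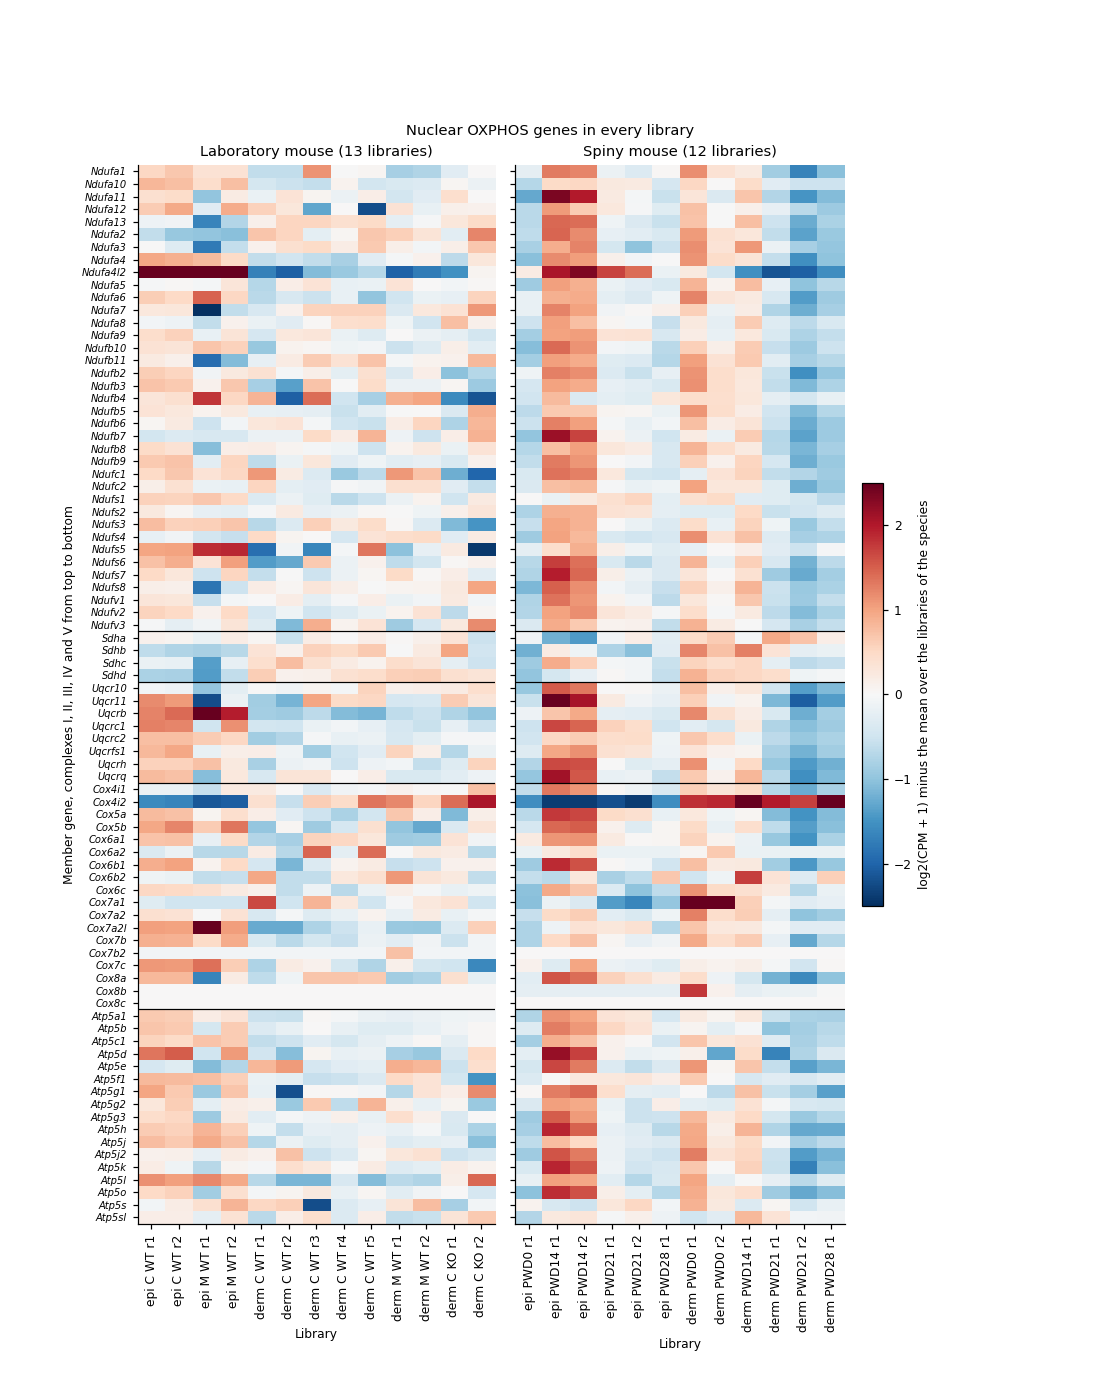
Each row is a member, ordered by complex, and each column a library (13 of the laboratory mouse, 12 of the spiny mouse; C, center; M, margin; r, replicate); color is log2(CPM + 1) minus the mean over the libraries of that species, drawn to at most 2.5 in either direction. The 2 PWD14 epidermis libraries of the spiny mouse are red for most members, Ndufa4l2 is red in laboratory mouse epidermis, and Cox4i2 is blue in the epidermis of both species.

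In spiny mouse epidermis nearly the whole set was higher at PWD14 than at PWD21. Of 77 members tested, 66 (85.7%) were higher and 2 (2.6%) lower at a false discovery rate (FDR) under 0.05, against 23.4% of all 12889 genes tested that were higher and 23.2% that were lower (edgeR's quasi-likelihood test, Benjamini-Hochberg over all genes, 2 libraries a day). Fold changes are PWD14 over PWD21, so a positive value is a higher level on the earlier day. The median log2 fold change was 1.26 over members and -0.04 over all genes. The summed level of the 84 members was 28265 and 24768 CPM at PWD14 and 12979 and 11896 CPM at PWD21. In bulk tissue, fewer cells of a type and less RNA per cell cannot be told apart. With library size alone as the scale, the all-gene median moved to -0.59 and the members split into 46 higher and 6 lower, with a median of 0.71, against 10.4% of all genes higher and 44.4% lower.

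Complex I, the entry point for NADH electrons, was higher at PWD14 in 33 of 36 members tested, with a median log2 fold change of 1.25. Ndufs6, an accessory subunit of its peripheral arm, was at 177 and 139 CPM at PWD14 and 40.3 and 32.6 CPM at PWD21, with 32.1 and 40.6 CPM in the single libraries of PWD0 and PWD28. Both PWD14 libraries lay above all others, and the log2 fold change was 2.15 ± 0.20, FDR = 5.17e-05 (± SE). The membrane arm subunit Ndufa11 was at 454 and 354 CPM at PWD14 and 103 and 85.7 CPM at PWD21 (2.14 ± 0.18), and Ndufb7 was higher at PWD14 by 2.01 ± 0.19. Among the core subunits, Ndufv1, which binds NADH and flavin, was higher by 1.27 ± 0.16, FDR = 0.000178. Ndufs1, the largest iron-sulfur subunit, did not pass the test (-0.37 ± 0.18, FDR = 0.11): it was at 97.5 and 129.8 CPM at PWD14 and at 145 and 158 CPM at PWD21. Ndufa10 and Ndufs5 were the other complex I members that did not pass.

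Complex II was split. Sdha, the flavoprotein that oxidizes succinate, was at 30.6 and 26.4 CPM at PWD14 and 69.0 and 81.2 CPM at PWD21, with 67.6 CPM at PWD0 and 59.8 CPM at PWD28. The PWD14 libraries were the lowest of the 6, and Sdha was lower at PWD14 (-1.36 ± 0.19, FDR = 0.000309). Sdhb, the iron-sulfur subunit that receives its electrons, was at 144 and 116 CPM at PWD14 and 72.4 and 60.1 CPM at PWD21, higher on the earlier day (1.01 ± 0.18, FDR = 0.00127). The membrane anchor Sdhc was higher at PWD14 too (0.88 ± 0.17, FDR = 0.00211), and the other anchor, Sdhd, did not pass (-0.27 ± 0.18, FDR = 0.241). Under library size alone the call of Sdhb was lost (FDR = 0.0521).

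Complex III was higher at PWD14 in 7 of 8 members, with a median log2 fold change of 1.29. Uqcr11, its smallest subunit, had the largest PWD14 excess of all members at a mean of 1 CPM or more: it was at 502 and 358 CPM at PWD14, 100.5 and 80.9 CPM at PWD21, 57.8 CPM at PWD0 and 74.5 CPM at PWD28. The PWD14 libraries lay far above the other 4 (2.28 ± 0.20, FDR = 5.17e-05, a 4.87-fold excess). Uqcrq, another small accessory subunit, was higher by 2.05 ± 0.19. The core protein Uqcrc1 was higher by 1.09 ± 0.16 and the Rieske iron-sulfur protein Uqcrfs1 by 0.75 ± 0.15. Uqcrc2 was the member that did not pass.

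Complex IV was higher at PWD14 in 10 of 12 members tested, with a median of 1.31. Cox5a was at 1299 and 1213 CPM at PWD14 and 531 and 502 CPM at PWD21 (1.32 ± 0.15, FDR = 0.000102), and Cox4i1, the general form of subunit IV, was at 983 and 839 and 400.2 and 363 CPM (1.29 ± 0.16, FDR = 0.00015). In both genes the lower PWD14 library lay above the higher PWD21 library. The heart and muscle paralog Cox7a1 had a larger fold change (3.26 ± 0.75, FDR = 0.00462) at a mean under 1 CPM, from 17 counts in each PWD14 library and 8 and 1 counts at PWD21, and its call was lost without the second PWD21 library (FDR = 0.0542). Cox6b2 and Cox7a2l did not pass.

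Complex V had the highest median, 1.65, with 14 of 17 members higher at PWD14 and Atp5s lower (-1.02 ± 0.38, FDR = 0.0471). Atp5g2, an isoform gene of the c subunit, was higher by 2.23 ± 0.53, FDR = 0.00574, from 27 and 32 counts at PWD14 and 26 and 7 counts at PWD21. Atp5k, Atp5h, Atp5d and Atp5e, small subunits of the stalks and of the membrane part, were higher by 2.01 to 2.10. Atp5e was at 785 and 607 CPM at PWD14 and 193 and 161 CPM at PWD21, and the days did not overlap. The large catalytic-head subunits had smaller values: Atp5a1 was higher by 0.78 ± 0.16 and Atp5b by 0.79 ± 0.16. Atp5b was at 3288 and 2881 CPM at PWD14 against 1929.8 and 1726 CPM at PWD21. Atp5f1 and Atp5sl did not pass.

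The size of the PWD14 excess went with transcript length, a relation looked for after the values were seen. Across the 77 members Spearman's rho between transcript length and log2 fold change was -0.64, and across 12292 genes tested it was -0.25, with all points taken from the same 4 libraries. The 48 members under 1000 bases had a median log2 fold change of 1.55 and the 29 longer ones of 0.75, while all 802 genes under 1000 bases had a median of 1.14 and the 11490 longer ones of -0.12. Members had a median length of 776 bases, against 2853 bases over all genes. Sdha, Ndufs1, Uqcrc2, Atp5a1 and Atp5b are among the longer members. So are Uqcrq (1521 bases) and Ndufv1 (1661 bases), for which a larger excess is given above. What part length has in the excess was not tested.

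**Figure D2:**
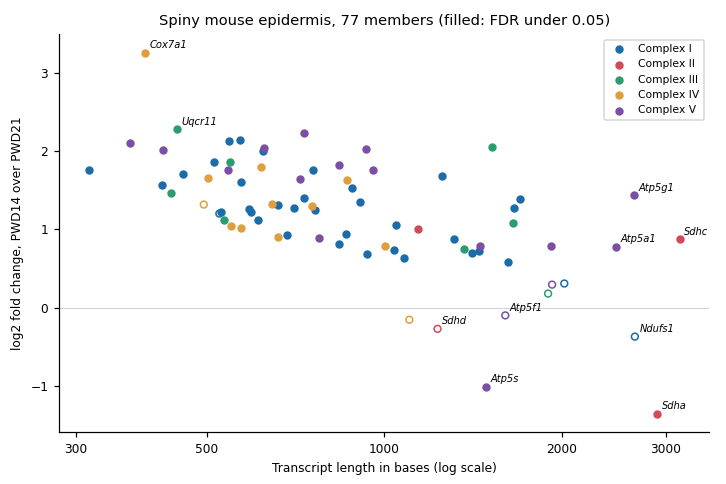
Log2 fold change between PWD14 and PWD21 in spiny mouse epidermis (y axis) against transcript length in bases (x axis, log scale) for the 77 members tested. The short members sit highest, with a median of 1.55 under 1000 bases and of 0.75 above.

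Other gene lists of the pathway did not all share the PWD14 excess of the subunits. Of 76 mitochondrial ribosomal protein genes 52 were higher at PWD14 and 1 lower (median 0.99), and of 80 cytosolic ribosomal protein genes 59 were higher and 1 lower (median 1.4). In contrast, 2 of 13 TCA cycle genes were higher and 7 lower (median -0.48): Suclg2, a subunit of succinyl-CoA ligase, was lower (-1.81 ± 0.40) and so was Ogdh of the oxoglutarate dehydrogenase complex (-1.70 ± 0.17), while Mdh2, the mitochondrial malate dehydrogenase, was higher (1.09 ± 0.16). Of 9 genes of pyruvate dehydrogenase and its regulators 0 were higher and 3 lower (median -0.03), Pdha1 among them (-1.47 ± 0.23). Of 8 genes of the mitochondrial genome 2 were higher and 5 lower (median -0.98), with ND1 at -1.78 ± 0.28, ND3 at 2.96 ± 0.38 and ND5 at 0.73 ± 0.26.

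Among 42 assembly factors 14 were higher at PWD14 and 3 lower (median 0.34): Pet100, an assembly factor of complex IV, was higher (2.20 ± 0.20) and Cox15, which makes its heme A, was lower (-2.64 ± 0.35). Of 11 carriers and electron transfer genes 7 were higher and 2 lower (median 0.74), with Etfb at 1.97 ± 0.17. Of 14 import and cristae genes 6 were higher and 2 lower (median 0.25), with the import channel Tomm40 at 1.30 ± 0.22. Of 17 glycolysis genes 6 were higher and 1 lower (median 0.46), the aldolase Aldoc higher by 1.54 ± 0.24 and the hexokinase Hk1 lower (-1.05 ± 0.19). Of 11 transcriptional regulators of mitochondria 5 were higher and 1 lower (median -0.45), with the coactivator Ppargc1b at 1.48 ± 0.47 and the methyltransferase Tfb1m at -1.46 ± 0.33.

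Markers of other cells moved with the days. Summed neutrophil markers were at 3714 and 2135 CPM at PWD14 and at 421 and 184 CPM at PWD21. Only 2 of the 8 markers listed averaged at least 1 CPM over the days in epidermis. Of these, 1 was highest at PWD14 and 1 was lowest, so the sum does not stand for the list. The adipocyte list was at 9389 and 7328 CPM against 1422 and 1076 CPM, nearly all of it Fabp4, whose level was 9348 and 7285 CPM at PWD14, while the defining adipocyte gene Adipoq was at 0.230 and 0.360 CPM at PWD14 and 0.182 and 0.228 CPM at PWD21. Keratinocyte markers summed to 131778 and 118168 CPM at PWD14 and 84012 and 77800.3 CPM at PWD21, with 4 of 14 higher and 2 lower. The median marker did not follow the sum: its log2 ratio to PWD0 was -0.77 at PWD14 and -0.48 at PWD21. Of the 14, 3 were highest at PWD14 and 8 in the single PWD0 library. Erythroid markers summed to 53.1 and 71.0 CPM at PWD14 and 14.8 and 0.913 CPM at PWD21, with 3 of 4 tested higher and 0 lower (median 2.93), and of 9 macrophage markers 4 were higher and 1 lower. Reads counted on genes were 26.8 and 24.4% of all at PWD14 and 34.1 and 38.3% at PWD21, and reads of low mapping quality were 59.5 and 59.6% against 52.6 and 50.03%. The TMM factors were 0.674 and 0.708 at PWD14 and 0.972 and 1.001 at PWD21. The part of these differences in the member values was not tested.

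Promoters are shown because most members were higher together at PWD14 and factors that bind such promoters are known: NRF1, GABPA (NRF2), ESRRA and YY1 are regulators of respiratory genes. RefSeq promoters of 300 bases (250 before and 50 after the start, GRCm38.p6, laboratory mouse) were at hand for 69 of the 84 members, 75 promoters in all. The NRF1 letters GCGCANGCG, on either strand, were in 28% of them and in 6.25% of all 32851 promoters of that length. The GABPA letters CCGGAAG were in 21.3% against 8.86%, the YY1 letters AAGATGGCG in 12% against 1.4% and the ESRRA letters TNAAGGTCA in 4% against 1.28%. Matches of different motifs overlapped in 0 cases, and 5 neighbouring matches of the same motif overlapped. At least 1 motif was in 50.7% of member promoters and in 16% of all. A match describes the letters and is not a measured binding site, and the spiny mouse promoters may differ.

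Of the 66 members that were higher at PWD14 in spiny mouse epidermis 56 had a promoter and 31 of these (55.4%) held a motif; of the 11 tested members that were not higher 9 had a promoter and 4 (44.4%) held a motif. The promoters of Uqcr11 (chr10:80406772-80407071, minus strand) and Ndufs6 (chr13:73328433-73328732, minus strand), which had the largest excess in complexes III and I, and of Sdha (chr13:74350191-74350490, minus strand) and Sdhb (chr4:140961021-140961320, plus strand), which moved in opposite directions, are given 5′ to 3′ with motif matches in capitals. Uqcr11 held an NRF1 and a GABPA match, Ndufs6 an NRF1 and a YY1 match, Sdha 3 NRF1 matches and Sdhb a GABPA match.
Uqcr11: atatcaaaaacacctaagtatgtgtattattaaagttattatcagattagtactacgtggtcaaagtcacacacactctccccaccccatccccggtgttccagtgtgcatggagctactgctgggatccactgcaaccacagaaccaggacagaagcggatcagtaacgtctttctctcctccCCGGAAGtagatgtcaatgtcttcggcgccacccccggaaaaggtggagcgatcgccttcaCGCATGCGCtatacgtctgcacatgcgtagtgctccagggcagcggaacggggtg
Ndufs6: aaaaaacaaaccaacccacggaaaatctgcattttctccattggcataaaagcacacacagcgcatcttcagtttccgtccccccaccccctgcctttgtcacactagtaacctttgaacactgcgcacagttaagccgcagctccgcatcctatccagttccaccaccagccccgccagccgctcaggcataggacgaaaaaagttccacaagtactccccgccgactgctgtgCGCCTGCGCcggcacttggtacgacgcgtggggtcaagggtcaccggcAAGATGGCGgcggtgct
Sdha: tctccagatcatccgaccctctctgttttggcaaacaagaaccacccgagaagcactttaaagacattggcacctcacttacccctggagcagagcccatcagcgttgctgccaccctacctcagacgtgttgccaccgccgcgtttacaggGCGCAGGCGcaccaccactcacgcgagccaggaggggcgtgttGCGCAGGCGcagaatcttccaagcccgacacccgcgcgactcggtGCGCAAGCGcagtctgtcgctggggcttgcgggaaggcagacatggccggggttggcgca
Sdhb: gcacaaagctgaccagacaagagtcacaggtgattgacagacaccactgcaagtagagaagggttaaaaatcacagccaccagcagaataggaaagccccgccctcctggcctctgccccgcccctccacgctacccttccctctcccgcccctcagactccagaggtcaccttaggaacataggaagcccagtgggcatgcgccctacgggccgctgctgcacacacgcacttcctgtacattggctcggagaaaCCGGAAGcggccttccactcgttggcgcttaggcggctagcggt

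Over the whole course of the spiny mouse wound, the members peaked in the epidermis at PWD14. Of 75 members averaging at least 1 CPM over the days, 68 (90.7%) had their highest epidermal level at PWD14, against 32.9% of 12618 genes. Their lowest level was at PWD0 in 58 (77.3%), against 27.7%. With library size alone 62 members peaked at PWD14, against 2092 of the 12618 genes. On the TMM scale the members' median log2 ratio to PWD0 was 1.76 and 1.66 in the PWD14 libraries, 0.69 and 0.51 at PWD21 and 0.33 at PWD28. PWD0 and PWD28 had 1 epidermis library each, so these ratios carry no test. In the dermis, 41 of 76 members were highest at PWD0 and 33 at PWD14, against 24.4 and 30.2% of 13694 genes. With library size alone the counts were 52 and 22, against 3398 and 2794 of the 13694 genes. On the TMM scale the members' median log2 ratio to PWD0 was -0.08 in the single PWD14 library, -0.94 and -1.52 at PWD21 and -1.18 at PWD28.

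Genes of the mitochondrial genome took another path at their median, but they were split. Of the 13 genes listed, 8 averaged at least 1 CPM over the days. In the epidermis 3 of these 8 were highest at PWD14 and 5 were lowest. In the epidermis their median log2 ratio to PWD0 was -0.90 at PWD14, where the nuclear members peaked, and it stood at -0.16 and -0.18 on the next days. In the dermis it was -3.34 at PWD14, followed by -1.56 and -1.57. Summed over the list, dermal levels were 15077 and 13383 CPM at PWD0, 966 CPM at PWD14, 3676 and 4703 CPM at PWD21 and 4434 CPM at PWD28.

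**Figure D3:**
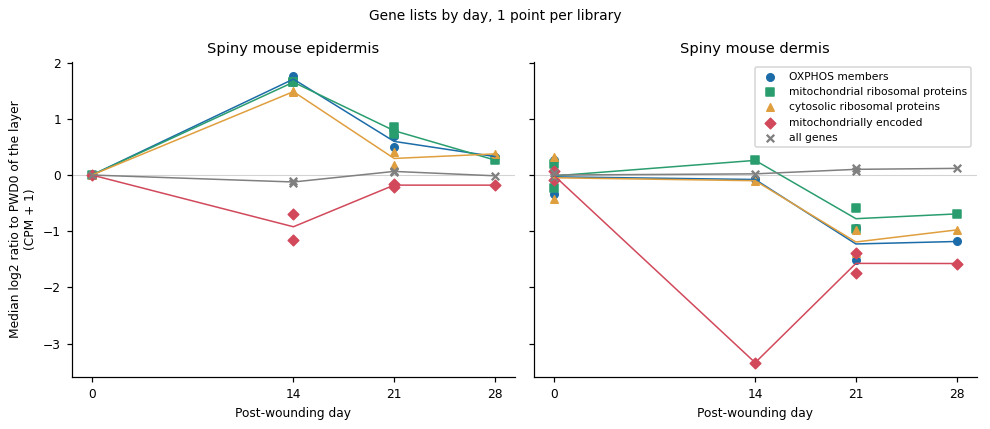
Median log2 ratio to the PWD0 level (y axis) by post-wound day (x axis) in spiny mouse epidermis and dermis, for the nuclear members, the mitochondrial and cytosolic ribosomal protein genes, the genes of the mitochondrial genome and all genes. In the epidermis the nuclear members reach 1.69 at PWD14 while the genes of the mitochondrial genome are at -0.90.

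In spiny mouse dermis the members were lower at PWD21 than in unwounded skin at PWD0. Of 79 tested, 49 (62.0%) fell and 0 rose, against 14.2% of all 14481 genes that fell and 12% that rose. At an unadjusted p under 0.05 there were 62 members lower and 0 higher, and the share of all genes at that threshold is not given. DESeq2 called 56 lower and 0 higher (16.4% of all genes lower), and edgeR's likelihood ratio test 52 and 0 (17.8%). The median log2 fold change was -1.30 over members and 0.03 over all genes. This count rested on few libraries: without the first PWD21 library it was 24 (against 4.94% of all genes lower), without the second 2 (against 5.59%; Cox7a1 at -3.34 and Ndufa4l2 at -2.26, named after their values were seen), without the first PWD0 library 37 (14.2%) and without the second 66 (17.3%). The median without each library in turn was -1.64 to -0.90. Replicates differed in the members as a group, with a median log2 difference of 0.61 between the PWD0 libraries and of 0.52 between the PWD21 libraries, against -0.05 and -0.01 over all genes. Reads counted on genes were 27.0 and 32.8% of all in the PWD0 libraries and 44.9 and 52.9% in those of PWD21, lower in the first library of each day, in which the members were higher, and the part of this in the member values was not tested.

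Cox7a1 fell most: it was at 24.7 and 17.8 CPM at PWD0, 3.92 CPM at PWD14, 2.18 and 1.67 CPM at PWD21 and 1.85 CPM at PWD28 (-3.54 ± 0.42, FDR = 0.000967). Both PWD0 libraries lay above all later ones. Ndufa4l2 was at 56.7 and 34.4 CPM at PWD0 and 9.88 and 10.7 CPM at PWD21 (-2.23 ± 0.36, FDR = 0.00358), and Ndufa4 itself fell by 1.92 on the log2 scale, from 372 and 235 CPM to 112 and 57.8 CPM. Complex I fell in 26 of 36 members, with Ndufa1 at -2.17 ± 0.41, Ndufb2 at -1.88 ± 0.41 and Ndufa2 at -1.80 ± 0.38, and complex III in 7 of 8, with Uqcrh at -2.05 ± 0.48 and Uqcr11 at -1.93 ± 0.41. Complex IV fell in 8 of 14 and complex V in 7 of 17, with Atp5j2 at -1.91 ± 0.42 and the stalk subunit Atp5o at -1.85 ± 0.34.

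Complex II fell in 1 of 4 members, Sdhc (-1.003 ± 0.29, FDR = 0.0337). Sdha was at 99.0 and 113 CPM at PWD0 and 139 and 119 CPM at PWD21 (0.21 ± 0.27, FDR = 0.586), and both PWD21 libraries lay above both PWD0 libraries. Sdha, Atp5g2, Atp5sl and Cox6b2 were the members with a log2 fold change above 0, at 0.21, 0.09, 0.51 and 0.46, and none of them passed the test. Transcript length went with the change here too, with rho 0.51 over 79 members and 0.37 over all genes from the same libraries, and members under 1000 bases at a median of -1.44 against -0.96 for longer ones.

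Other pathway lists were lower with the members. In the mitochondrial genome 6 of 8 genes fell (median -1.64; ND1 -1.96 ± 0.54), and so did 28 of 79 cytosolic ribosomal protein genes (median -1.45; Rps10 -2.22 ± 0.61) and 22 of 76 mitochondrial ribosomal protein genes (median -0.82; Mrps6 -2.37 ± 0.42). A fall was also seen in 6 of 13 carriers (median -1.07; the ADP/ATP carrier Slc25a5 -1.92 ± 0.30), 9 of 41 assembly factors (median -0.72; the copper chaperone Cox17 -1.79 ± 0.36) and 5 of 13 TCA cycle genes (median -0.66; Idh3b -1.43 ± 0.29). The counts were 4 of 15 for glycolysis genes (median -0.74; Tpi1 -2.40 ± 0.29) and 4 of 14 for import genes (median -0.60; Hspd1 -1.71 ± 0.27), and 0 genes of these lists rose. Among 9 pyruvate dehydrogenase genes 1 rose and 3 fell, with the inhibitory kinase Pdk4 at -1.87 ± 0.51. Among 11 regulators 1 rose and 1 fell: Ppargc1a, the coactivator of mitochondrial biogenesis, fell (-2.84 ± 0.74) and its relative Pprc1 rose (1.05 ± 0.34).

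Cell type markers moved as well. All 10 adipocyte markers fell (median -5.24), from summed levels of 2206 and 2186 CPM at PWD0 to 274 and 155 CPM at PWD21, as did 12 of 19 skeletal muscle markers (median -2.33; 309 and 545 CPM against 154 and 223 CPM) and 12 of 14 keratinocyte markers (median -2.74; 11924 and 7028 CPM against 646 and 1225 CPM). Fibroblast markers rose in 7 of 15, endothelial markers in 4 of 8 and proliferation genes in 10 of 14. The 4 erythroid markers had a median log2 ratio to PWD0 of -2.10 at PWD21. The part of these cell type markers in the member values was not tested.

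On the TMM scale more members were higher in epidermis than in dermis in both species, a direction that turned in the laboratory mouse with library size alone, and no complex II member was called higher in epidermis in any of the 3 comparisons. At PWD21 in the spiny mouse, 36 of 79 members (45.6%) were higher in epidermis and 5 (6.33%) lower, against 29.4% and 33.5% of all 14966 genes, and the median was 0.70 against -0.06. In the laboratory mouse wound center 36 of 80 (45.0%) were higher and 6 (7.50%) lower, against 29.3% and 26.8% of 14329 genes, with a median of 0.68 against 0.05. In the margin 18 of 81 (22.2%) were higher and 8 (9.88%) lower, against 20.9% and 26.8% of 14964 genes, with a median of 0.20 against -0.16. With library size alone the center had 16 higher and 20 lower (median -0.11; all genes -0.73, with 17.0% higher and 43.0% lower) and the margin 6 higher and 28 lower (median -0.63; all genes -0.98, 10.7 and 41.4%), whereas the spiny mouse kept 29 higher and 5 lower (median 0.57; all genes -0.18, 26.6 and 36.6%). TMM factors were 0.697 to 0.738 in laboratory mouse epidermis and 1.099 to 1.297 in its dermis.

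Single libraries also weighed on these counts. The spiny mouse split became 21 higher and 3 lower without the first epidermis library (all genes 21.6 and 28.5%) and 63 and 4 without the first dermis library (30.5 and 35.0%). The center split became 25 and 2 or 24 and 1 without the first or the second epidermis library (18.7 and 14.4%, and 18.6 and 14.0%). The margin split became 5 and 3 or 6 and 4 without the first or the second dermis library (11.9 and 16.9%, and 12 and 17.4%), and 18 and 17 without the second epidermis library (21.0 and 27.6%), where the member median turned to -0.20.

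Ndufa4l2 was the member with the largest excess in epidermis in each comparison. In the laboratory mouse it was at 400.3 and 437 CPM in center epidermis and 285 and 333 CPM in margin epidermis, against 13.9, 10.6, 21.7, 24.3 and 28.3 CPM in center dermis and 10.9 and 13.3 CPM in margin dermis. All 4 epidermis libraries lay above every dermis library, with 5.11 ± 0.21, FDR = 0.000168 in the center and 4.71 ± 0.35, FDR = 8.02e-06 in the margin. In the spiny mouse at PWD21 it was at 156 and 127 CPM in epidermis and 9.88 and 10.7 CPM in dermis (3.75 ± 0.23, FDR = 1.23e-05).

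Complex III was higher in epidermis in 7 of 8 members in the spiny mouse, in 6 of 8 in the laboratory mouse center and in 2 of 8 in the margin. Of all genes 29.4, 29.3 and 20.9% were higher in these comparisons, and the margin count is near that share. Uqcrc1 was at 568.3 and 515 CPM in spiny mouse epidermis and 224 and 183 CPM in dermis (1.38 ± 0.22, FDR = 0.00113), and at 222 and 216 CPM against 66.8 and 64.9 CPM in the laboratory mouse center (1.76 ± 0.14, FDR = 0.00051). Neither pair of groups overlapped. Uqcr11 was higher in both (1.60 ± 0.34 and 2.24 ± 0.22), but in the laboratory mouse its call was lost with all 5 center dermis libraries (log2 fold change 0.95, FDR = 0.144), as was that of Ndufs6 (1.06, FDR = 0.0966, from 2.25 ± 0.19).

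Complex I was higher in 17 of 36 members in the spiny mouse with 0 lower, and in 12 of 37 with 1 lower in the center, where Ndufb3 had 1.84 ± 0.25 and Ndufa2 had -1.41 ± 0.22. In the margin 7 were higher and 3 lower, with Ndufs5 at 2.86 ± 0.61 and Ndufb11 at -1.47 ± 0.39. Of all genes 29.4% were higher in the spiny mouse, 29.3% in the center and 20.9% in the margin. The counts of higher complex I members in the center and the margin are near these shares and are not read as a trait of complex I. Complex IV had 5 higher and 3 lower of 14 in the spiny mouse, 8 and 1 of 14 in the center and 5 and 3 of 15 in the margin. The general subunits Cox8a (1.84 ± 0.23), Cox5a (1.68 ± 0.23) and Cox6a1 (1.30 ± 0.25) were higher in spiny mouse epidermis, and Cox7a2l (2.32 ± 0.14) and Cox6b1 (1.73 ± 0.27) in that of the laboratory mouse center.

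Complex V had 7 members higher and 0 lower in the spiny mouse, 10 and 1 in the center and 4 and 1 in the margin, each of 17 tested. Of all genes 29.4, 29.3 and 20.9% were higher, and the margin count of higher members is near that share. Atp5b was at 1929.8 and 1726 CPM in spiny mouse epidermis and 676 and 753 CPM in dermis (1.32 ± 0.25, FDR = 0.00249). Atp5d, the delta subunit of the central stalk, was higher in laboratory mouse epidermis in the center (2.21 ± 0.24) and the margin (1.40 ± 0.44). Atp5e, which sits beside it, was lower in both (-1.31 ± 0.17 and -1.77 ± 0.32). Atp5l, the member with the most near-identical pseudogene copies, was at 3.84 and 3.46 CPM in center epidermis. In center dermis it was at 0.355, 0, 0, 0.671 and 0.0343 CPM, and the test used the first and the second of these (FDR = 0.0179).

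Complex II was the exception. In the laboratory mouse center 0 of its 4 members were higher and 3 were lower in epidermis, against 29.3 and 26.8% of all genes. Sdhd was at 35.8 and 35.3 CPM in center epidermis and 96.5 and 67.3 CPM in the dermis libraries compared (-1.18 ± 0.23, FDR = 0.00875), with Sdhb at -0.92 ± 0.18, FDR = 0.00968 and Sdhc at -0.77 ± 0.19, FDR = 0.0195. The groups did not overlap for Sdhd. In the margin Sdhd was lower again (-1.55 ± 0.35, FDR = 0.00485). In the spiny mouse Sdhb was at 72.4 and 60.1 CPM in epidermis and 158 and 107 CPM in dermis (-1.04 ± 0.25, FDR = 0.00884), and Sdha was lower too (-0.82 ± 0.19, FDR = 0.00808), a call lost without the first epidermis library (FDR = 0.0983). The call of Sdhb in the laboratory mouse center was lost when either epidermis library was left out.

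In the same comparison of the spiny mouse, where 29.4% of all genes were higher and 33.5% lower, 47 of 77 mitochondrial ribosomal protein genes, 46 of 81 cytosolic ribosomal protein genes, 12 of 17 glycolysis genes (Pgk1 3.58 ± 0.54), 9 of 13 TCA cycle genes (citrate synthase Cs 1.79 ± 0.20), 9 of 13 carriers and 15 of 42 assembly factors were higher in epidermis, with 0, 1, 2, 0, 2 and 1 lower. The genes of the mitochondrial genome went the other way, with 6 of 8 lower (median -2.36; ND2 -3.17 ± 0.23). In the laboratory mouse center, where 29.3% of all genes were higher, 15 of 18 glycolysis genes were higher and 1 lower (median 2.6; the hexokinase Hk2 5.24 ± 0.24), and 6 of 13 TCA cycle genes (Cs 2.09 ± 0.20) and 9 of 12 genes of the mitochondrial genome (median 1.83) were higher with 0 lower. Of 76 mitochondrial ribosomal protein genes 20 were higher there and 2 lower, a share of higher genes below that of all genes. In the margin, where 20.9% of all genes were higher, 11 higher and 2 lower were counted for glycolysis, 4 and 0 for the TCA cycle, 8 and 0 of 13 for the mitochondrial genome and 11 and 3 of 76 for mitochondrial ribosomal proteins.

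**Figure D4:**
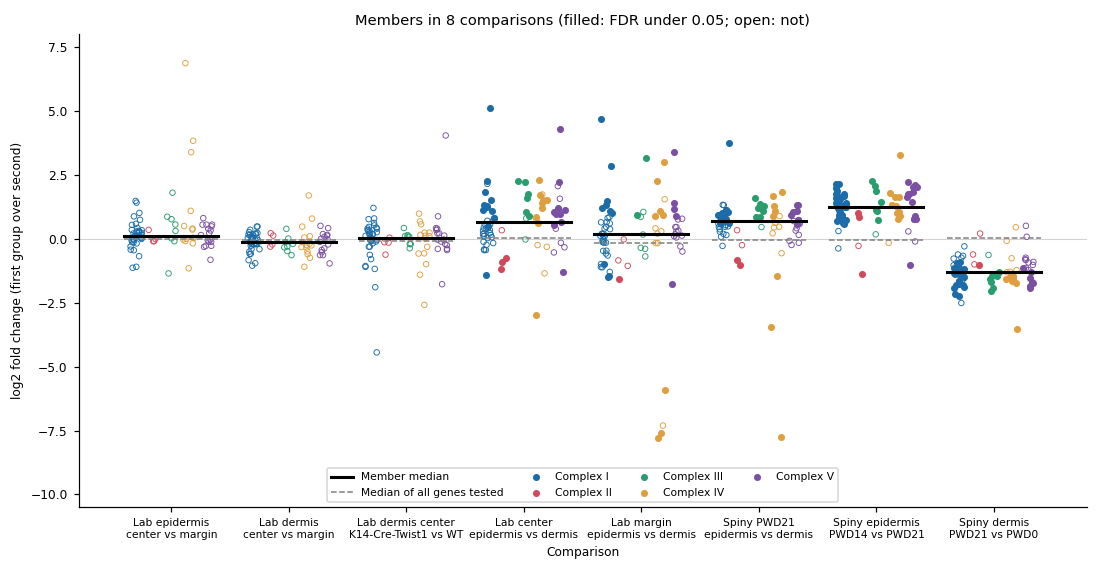
Log2 fold change of each member tested (points, by complex) in the 8 comparisons of groups. Filled points passed FDR 0.05; the solid bar is the median of the members (1.26 in spiny mouse epidermis, -1.30 in spiny mouse dermis) and the dashed line that of all genes tested; fitted values of Cox4i2, Cox6a2 and Cox6b2 against groups near 0 counts depend on the prior count and are no bound.

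Some paralog pairs differed between the skin layers. Shares are the counts of a paralog among those of its pair, so they are compared between libraries only. Ndufa4l2 made up 61.7 to 70.2% of the pair with Ndufa4 in laboratory mouse epidermis, 17.5, 12.8, 24.7, 29.7 and 25.4% in wild-type center dermis, 9.94 and 10.8% in margin dermis and 19.7 and 28.7% in K14-Cre-Twist1 dermis. In spiny mouse epidermis it was 40.0% in the PWD0 library, 34.0 and 41.1% in those of PWD14, 45.5 and 44.0% in those of PWD21 and 19.98% in that of PWD28, and in dermis 13.2 and 12.8%, 6.86%, 8.12 and 15.7%, and 15.7% on the same days. Within each species every epidermis library lay above every dermis library.

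Cox4i2, the form of subunit IV linked to low oxygen and known from lung and smooth muscle, went the other way. It had 21, 15, 0 and 3 counts in the laboratory mouse epidermis libraries and 45 to 426 in the dermis libraries, and 0 to 9 counts in spiny mouse epidermis against 98 to 589 in dermis. In CPM it was at 0.443 and 0.388 in center epidermis, 0 and 0.0470 in margin epidermis, 4.73, 1.90, 5.66, 4.97 and 10.01 in center dermis and 9.02 and 5.35 in margin dermis. The layers did not overlap in either species. The difference passed the test in the laboratory mouse center (FDR = 0.0325), in its margin (FDR = 0.000948) and in the spiny mouse at PWD21 (FDR = 2.11e-05), and fitted folds against such low counts are no bound. The center call was lost with the quasi-likelihood estimate of edgeR 3 (FDR = 0.0532), without either epidermis library (FDR = 0.287 for both) and without the first dermis library (FDR = 0.0621).

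As a share of subunit IV counts, Cox4i2 was 0 to 0.309% in laboratory mouse epidermis, 1.18 to 6.04% in wild-type center dermis, 4.99 and 3.20% in margin dermis and 6.17 and 6.06% in K14-Cre-Twist1 dermis. In spiny mouse dermis the share was 2.83 and 3.56% at PWD0, 4.84% in the PWD14 library, 7.47 and 8.77% in those of PWD21 and 11.4% in that of PWD28. Cox7a1 was 13.1 and 16.1% of its pair with Cox7a2 in spiny mouse dermis at PWD0, and 3.59 to 4.76% in the 4 later libraries. The 20 skeletal muscle markers summed to 309 and 545 CPM in these PWD0 libraries. Their later sums were 271 CPM (PWD14), 154 and 223 CPM (PWD21) and 142 CPM (PWD28). Median log2 ratios to PWD0 on these later days were -1.21, -1.35 and -1.60 over 19 skeletal muscle markers. Over 4 brown adipocyte markers they were -4.53, -2.67 and -2.36. Of these 4, 3 were highest in PWD0 dermis and 1 in PWD14 dermis. The part of either marker list in the Cox7a1 share was not tested. Cox6a2 reached at most 2.38% of its pair, in wild-type center dermis of the laboratory mouse, and Cox8b at most 1.08% of its pair, in PWD0 dermis of the spiny mouse.

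**Figure D5:**
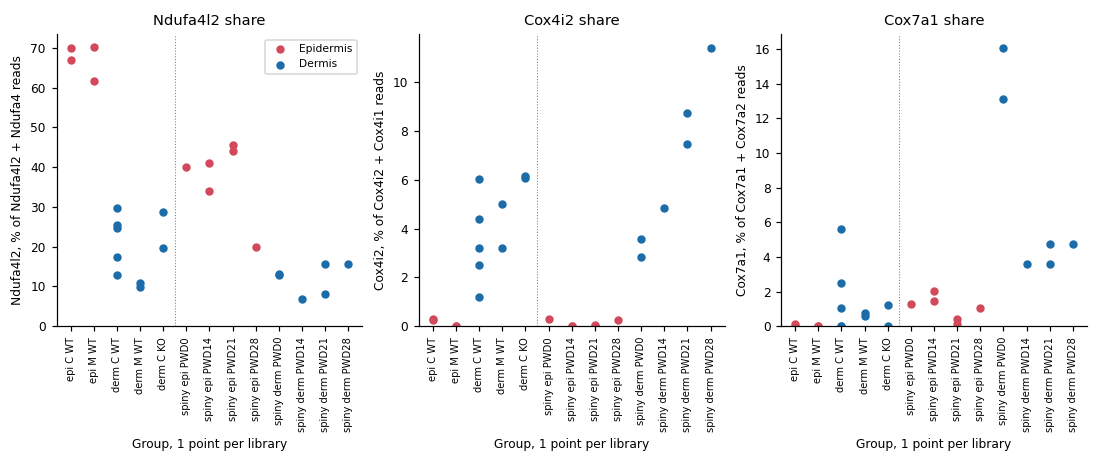
Share of a paralog among the counts of its pair (y axis, %) in each library, by group (x axis), for Ndufa4l2, Cox4i2 and Cox7a1. Ndufa4l2 is at 61.7 to 70.2% in laboratory mouse epidermis, whereas Cox4i2 is at 0 to 0.309% there and reaches 11.4% in spiny mouse dermis at PWD28.

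Center and margin of the laboratory mouse wound were compared because new follicles form in the center. In the epidermis 0 of 80 members tested passed in edgeR's quasi-likelihood test, against 1.24% of all 14165 genes. At an unadjusted p under 0.05 there were 4 members higher in the center and 2 lower, given without the share of all genes at that threshold. The median log2 fold change was 0.12, against -0.02 over all genes. DESeq2 called 4 members (Ndufb11 and Uqcr11 higher, Ndufs5 and Uqcrb lower, named after their values were seen; 10.4% of all genes) and edgeR's likelihood ratio test called 4 (Cox6a2 and Ndufb11 higher, Ndufs5 and Uqcrb lower; 10.8%). Each margin library moved these counts: without the first there were 10 higher and 7 lower (all genes 19.2 and 17.2%), and without the second 33 and 10 (27.5 and 23.4%).

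Ndufb11, a complex I subunit, was at 65.5 and 61.0 CPM in the center and 14.2 and 25.8 CPM in the margin (1.49 ± 0.32, FDR = 0.0906). Uqcr11 was at 64.9 and 59.8 CPM and 5.26 and 25.3 CPM (1.81 ± 0.60, FDR = 0.16). Uqcrb was at 137 and 155 CPM and 440.5 and 227 CPM (-1.35 ± 0.37, FDR = 0.127). In each of these genes center and margin did not overlap, and the margin libraries differed widely from each other. Cox7a2l was at 289.8 and 284 CPM in the center and 841 and 293 CPM in the margin, and Atp5b at 839 and 808 CPM and 382 and 804 CPM.

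The 13 genes of the mitochondrial genome had a median of -1.31 with 0 calls, and their summed level in the margin was 157019 and 71713 CPM. Fibroblast markers summed to 9201 and 7573 CPM in center epidermis and 3412 and 1247 CPM in margin epidermis, with 3 of 15 higher in the center. Their part in the member values was not tested.

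In the dermis 0 of 80 members passed between center and margin, against 0.850% of all 14698 genes. At an unadjusted p under 0.05 there were 0 members higher and 6 lower in the center, given without the share of all genes at that threshold. The median was -0.13, against -0.03 over all genes. DESeq2 called 1 member, Atp5f1, a stalk subunit of the ATP synthase (named after its value was seen; 5.02% of all genes), and the likelihood ratio test 0 (6.03%). Atp5f1 was at 100.3 and 94.8 CPM in the center libraries compared and 159.8 and 143 CPM in the margin (-0.63 ± 0.19, FDR = 0.191). The other 3 center libraries were at 75.5, 77.3 and 87.0 CPM. With all 5 center libraries the median of the members was 0.032. Of 14 keratinocyte markers 6 were lower in the center, with summed levels of 582 and 362 CPM against 1865 and 3491 CPM, and their part in the member values was not tested.

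Whether the center-margin difference itself differed between the layers was tested as an interaction. It passed in 0 of 81 members, against 3.48% of all 15531 genes (3.34% toward a larger center excess in epidermis and 0.135% the other way). At an unadjusted p under 0.05 there were 10 members, all toward a larger center excess in epidermis. The called genes among all genes leaned the same way, so this direction is not read as a trait of the members. The share of all genes at the unadjusted threshold is not given. The median interaction was 0.44 on the log2 scale, against 0.31 over all genes. DESeq2 called 2 members (Ndufb11 and Uqcr11; 7.15% of all genes) and the likelihood ratio test 4 (Cox4i2, Ndufb11, Uqcr11 and Uqcrfs1; 9.56%), named after their values were seen. Ndufb11 had 1.63 ± 0.44, FDR = 0.0783 and Uqcr11 2.59 ± 0.74, FDR = 0.0949. Without the second margin epidermis library 13 members were higher and 2 lower (all genes 7.39 and 0.880%), and without the first 1 (Uqcr11) was called (4.51%).

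In K14-Cre-Twist1 dermis the targeted gene was read first. Twist1 was at 66.8 and 38.0 CPM in the K14-Cre-Twist1 libraries and 51.6, 32.3 and 94.5 CPM in the wild-type center libraries compared, and the ranges overlapped. The Cre acts in keratinocytes, so the dermal level does not check the deletion. Among the members 0 of 81 passed in edgeR's quasi-likelihood test, against 0.0565% of all 14163 genes. At an unadjusted p under 0.05 in the same test there were 2 members higher and 1 lower, given without the share of all genes at that threshold. The median was 0.05, against -0.07 over all genes. DESeq2 called 1 member, Ndufs3, a core subunit of complex I (named after its value was seen; 5.56% of all genes), and the likelihood ratio test 0 (1.51%).

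Ndufs3 was at 6.81 and 5.06 CPM in the K14-Cre-Twist1 libraries and 24.6, 19.0 and 22.3 CPM in wild type (-1.89 ± 0.52, FDR = 0.273), and the groups did not overlap. Atp5l was at 1.46 and 4.94 and 0, 0.671 and 0.0343 CPM (FDR = 0.408), too near 0 for a fold. Without the first K14-Cre-Twist1 library, which leaves the library with 29848 CPM of keratinocyte markers, 5 members were called higher and 5 lower (all genes 10.5 and 11.9%): Cox4i1, Cox7a2l, Ndufa6, Ndufb5 and Uqcrh, and Atp5f1, Cox8a, Ndufb3, Ndufs3 and Sdhb. Krt5 was at 166 and 2690 CPM in the K14-Cre-Twist1 libraries. The part of keratinocyte RNA in these values was not tested. The 7 genes of the mitochondrial genome had a median of 1.21 and 0 calls, although all 7 had an unadjusted p under 0.05. The share of all genes at that threshold is not given.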

How the data were processed

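RNA-seq was read in 25 libraries. Per the study's methods and the submitters' processing notes, reads were aligned with STAR to mm10, for spiny mouse reads as well, and counted per RefSeq gene with HTSeq 0.6.0, and the deposited files hold these raw counts per gene, one file a library; the notes give STAR 2.4.1d. Rows that name no gene (such as low mapping quality) were left out of library sizes, and the gene rows held 57.7 to 69.8% of laboratory mouse and 24.4 to 52.9% of spiny mouse reads.

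Groups came from the labels. The 5 wild-type center dermis libraries were used as 2 (against margin) and 3 (against K14-Cre-Twist1), as library names in the study's clustering show. The same 2 libraries were set against center epidermis. Fits with all 5 mix these sets. The study names Twist1+/+ mice as the controls of its transgenic mice, so control stock and set are not parted in such fits. The study calls the libraries biologically independent; nothing in the labels ties them to animals, so p-values measure the spread between libraries. Each comparison was fitted with edgeR 4.0.16 (R 4.3.3; filterByExpr, TMM, quasi-likelihood test, prior count 0.125, Benjamini-Hochberg FDR under 0.05 over all genes tested). SE was taken as the size of the fitted change divided by the root of its F statistic. Printed CPM were TMM-scaled over all libraries of a species, so their ratios can differ from fitted folds. Members, gene lists and comparisons were chosen with earlier results of these data known. Named genes were the 10 called members a direction with the largest change at a mean of at least 1 CPM, the paralog pairs, core subunits of each complex and the 2 called genes with the largest change in each pathway list. Other genes, such as Mdh2, ND5, Fabp4, Adipoq and Krt5, were named outside this rule with their values known. Only some of them are marked so in the text. Comparisons that share libraries are not independent of each other.

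Alternatives were DESeq2 1.42.0, edgeR's likelihood ratio test, RLE factors, library size alone, other filters, joint fits, each library left out (a lone library is then assumed to vary like the others) and, chosen after seeing the data, the quasi-likelihood estimate of edgeR 3. Near-identical pseudogene transcripts were found with blastn 2.17.0+. The fit was tested on simulated data with 200 genes changed.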

Additional observations from a re-analysis of the deposited data

Results flagged for a closer look

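Among the 5 wild-type center dermis libraries of the laboratory mouse, 80 members were examined for a library far from the other 4 (the gap to its nearest neighbour over the whole range above Dixon's critical value of 0.71), and 8 members held one. Chance marks about 1 in 20 groups, and the share of all genes so marked was not counted. The 8 of 80 are thus not read as a trait of the members. The 5 libraries are also those used above as sets of 2 and 3. In complex I, Ndufa1 was at 122 CPM in library 3 and 36.1 to 58.0 CPM in the others, Ndufa10 at 58.6 CPM in library 4 against 35.9 to 39.9 CPM, Ndufb10 at 34.4 CPM in library 1 against 62.5 to 71.8 CPM, Ndufb5 at 44.6 CPM in library 4 against 55.0 to 58.3 CPM and Ndufc2 at 45.5 CPM in library 1 against 25.4 to 30.6 CPM. Sdha of complex II was at 75.3 CPM in library 2 against 112 to 126 CPM. Uqcr10 of complex III was at 63.9 CPM in library 5 against 40.5 to 45.2 CPM. Atp5g1 of complex V was at 0.380 CPM in library 2 against 4.53 to 5.47 CPM.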

How the results depend on the processing

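No paired analysis was possible because the labels give no replicate numbers. Causes were not tested beyond what each alternative leaves out. In epidermis of the laboratory mouse, center against margin, the count of called members moved from 0 to 4 with DESeq2, to 4 with the likelihood ratio test and to 1 in a joint fit of the species, and was 0 to 43 with each library left out, while the median of 0.12 ranged from 0.049 to 0.32. In dermis the count moved from 0 to 1 with DESeq2 and the median of -0.13 to -0.22 with library size alone, -0.01 in the joint fit (-0.00574), 0.032 with all 5 center libraries and -0.094 with all 9 dermis libraries and a term for their set, and to between -0.16 and -0.067 with a library left out. For K14-Cre-Twist1 the count moved from 0 to 1 with DESeq2 and to 1 in the joint fit, and was 0 to 10 with a library left out, with medians of -0.10 to 0.16. The interaction count moved from 0 to 2 with DESeq2 and to 4 with the likelihood ratio test, and was 0 to 15 with a library left out; its median of 0.44 moved to 0.28 with DESeq2, RLE factors or at least 10 counts in every library, and was 0.27 to 0.67 with a library left out. In spiny mouse epidermis the median of 1.26 moved to 0.71 with library size alone. In spiny mouse dermis the count of 49 was 2 to 66 and the median -1.64 to -0.90 with a library left out. Between layers with a library left out, counts were 24 to 67 in the spiny mouse, 25 to 61 in the laboratory mouse center and 8 to 35 in the margin, and medians 0.39 to 1.05, 0.68 to 0.80 and -0.20 to 0.35. With library size alone the layer medians turned to -0.11 in the center and -0.63 in the margin; the center median was 0.63 with at least 10 counts, 0.55 in the joint fit and 0.56 with all 5 center libraries. Of 2636 values of named genes under alternatives, 2350 kept their direction and call, 140 lost the call, 60 gained it and 85 values without a call changed sign. The called value whose sign changed was that of Cox7a2 between the layers of the laboratory mouse center, at -0.16 with its call lost (FDR = 0.511) with library size alone. Depth limits members that lie near 3 counts in some libraries, among them Cox4i2, Cox6a2, Cox6b2, Cox7a1, Cox7c, Cox8b, Ndufb4, Ndufs5, Atp5g2 and Atp5l.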
